A study of Mus musculus with 6 samples.

Results

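Interferon-stimulated genes were followed in long-term and short-term hematopoietic stem cells (LT/ST-HSCs) that lacked the lymphotoxin-β receptor. The 10 genes were Irf7, Irf9, Isg15, Ifit1, Ifit3, Ifitm1, Ifitm2, Ifitm3, Bst2 and Oasl2. They were chosen by symbol as genes known to be induced by interferon, not by their values here, although earlier results of these data were known when they were chosen. All 10 had an entry in the deposited tables, which hold 26216 names, and all 10 lay among the 13108 names whose mean value was in the upper 50% and which were tested.

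The study asked what loss of the receptor changes within HSCs. LSK cells (lineage-negative, Sca-1 and c-kit positive bone marrow cells) of Ltbr-/- donors, which carried CD45.2, and of receptor-proficient congenic Ly5.1 donors, which carried CD45.1, were mixed and given to Ly5.1/Ly5.2 recipients after lethal irradiation, so that cells of both genotypes shared a host. At week 6, LT/ST-HSCs of each genotype were sorted from the bone marrow as Annexin-V-negative, CD150-positive and CD48-negative LSK cells, and RNA was sequenced from 3 Ltbr-/- and 3 Ly5.1 replicates, each pooled from several chimeras. The Ltbr-/- donors were germline knockouts aged 13, 10 and 10 to 13 weeks in replicates 1, 2 and 3, and the Ly5.1 donors were 7 to 13 weeks old in each replicate, so that age, congenic background and genotype cannot be told apart fully. The labels do not name a library or sequencing batch.

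Ltbr itself was at 24.2, 26.4 and 23.1 in the Ltbr-/- replicates and at 564, 549 and 522 in the Ly5.1 replicates, so that the labels held. Each value is a deposited signal, taken as 2 to the power of a regularized log, a normalized scale without counts; the depth of the samples is therefore unknown, and the number of samples limits the precision. Because the cells were measured in bulk, fewer cells of a type and less RNA per cell cannot be told apart. Markers of the sorted cells differed in level, with Kit at 5179 to 6103 and Procr at 549 to 630 over the 6 samples. Slamf1, which encodes CD150, was at 260 to 329 and Hoxb5 at 30.9 to 34.3. Cd48, which the sort selected against, was at 20.1 to 28.9. Neutrophil genes were present as well, with S100a9 at 9949 to 14909, and the purity of the cells was not tested.

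Type I interferon binds a receptor whose chains activate the kinases Jak1 and Tyk2, which phosphorylate STAT transcription factors. Together with Irf9, STATs form the ISGF3 complex, which binds the interferon-stimulated response element (ISRE) in promoters of target genes, while interferon-γ acts mainly through STATs at the GAS element. Irf7 amplifies the response. Irf7 and Irf9 are themselves induced by interferon, and the remaining 8 genes encode effectors. Ifitm1, Ifitm2, Ifitm3 and Bst2 encode membrane proteins that restrict enveloped viruses. Isg15 encodes a ubiquitin-like modifier, Ifit1 and Ifit3 proteins of the Ifit family, and Oasl2 a protein of the oligoadenylate synthetase-like family. Hematopoietic stem cells are known to carry part of this antiviral set without an infection, members of the Ifitm family among them, and HSCs that are exposed to interferon can leave quiescence.

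The 10 genes lay on 6 chromosomes (GRCm38, GENCODE M21). Ifitm2 (chr7:140954837-140955987, minus strand), Ifitm1 (chr7:140967221-140969825, plus strand) and Ifitm3 (chr7:141009586-141010770, minus strand) form a cluster, with Irf7 (chr7:141262706-141266481, minus strand) farther along the same chromosome. Ifit3 (chr19:34583531-34588731, plus strand) and Ifit1 (chr19:34640871-34650009, plus strand) share the Ifit cluster. Bst2 (chr8:71534255-71537456, minus strand), Isg15 (chr4:156199424-156200818, minus strand), Oasl2 (chr5:114896936-114912234, plus strand) and Irf9 (chr14:55603571-55610030, plus strand) stand alone. None lay on chromosome 6, which holds Ltbr, or on chromosome 1, which holds Ptprc, the gene of the CD45 allele used to separate the genotypes.

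The stretches that carry the core of the ISRE are shown because genes that rose and genes that did not rise both had it. The core was searched as GAAANNGAAA on both strands of the RefSeq promoters (GRCm38.p6, from 250 bases before to 50 after a transcript start), and all 10 genes matched a promoter. It was found in 6 of the 10 genes, against 3.92% of the 9179 tested genes with a promoter (3.44% of all 32851 promoters). Because the 10 genes were chosen as known interferon targets, their higher share is no finding. In the sequences below, written 5′ to 3′ on the strand of the gene, capitals mark matches to the core; in Isg15 and Bst2 matches overlap each other, and in Ifit1 the core lies on the opposite strand and appears as its reverse complement.
Ifitm2 (chr7:140955988-140956047, minus strand): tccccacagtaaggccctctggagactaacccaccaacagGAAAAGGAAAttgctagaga
Ifitm3 (chr7:141010714-141010743, minus strand): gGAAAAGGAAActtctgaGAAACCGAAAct
Bst2 (chr8:71537565-71537624, minus strand): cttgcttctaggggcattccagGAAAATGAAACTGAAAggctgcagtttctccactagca
Isg15 (chr4:156200856-156200915, minus strand): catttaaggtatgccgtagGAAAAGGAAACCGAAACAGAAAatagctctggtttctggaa
Ifit1 (chr19:34640770-34640829, plus strand): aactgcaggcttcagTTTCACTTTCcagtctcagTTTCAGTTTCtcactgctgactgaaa

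Relative to the RefSeq start, the core lay at −46 to −37 in Ifitm2, from +3 to +29 in Ifitm3, from −130 to −115 in Bst2, from −78 to −57 in Isg15 and from −104 to −76 in Ifit1, and Ifit3 had 2 matches between −156 and −113. No match was found in the windows of Ifitm1, Irf7, Irf9 and Oasl2. For Ifitm1, which changed most of the 10, the part of the window upstream of its nearby transcript starts is printed for comparison. This window lies in the first intron of a longer annotated transcript of the gene. The promoter of that longer transcript was not searched, so Ifitm1 is not shown to lack the core.
Ifitm1 (chr7:140967826-140968027, plus strand): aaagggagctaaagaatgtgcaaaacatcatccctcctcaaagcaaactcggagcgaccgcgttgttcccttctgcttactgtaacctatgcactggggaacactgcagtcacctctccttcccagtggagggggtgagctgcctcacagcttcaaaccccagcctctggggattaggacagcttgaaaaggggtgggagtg

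The GAS letters TTCNNNGAA stood in 8.31% of tested genes with a promoter and in Ifitm3 and Bst2, where in each they overlapped an ISRE core. The NF-κB consensus, the element bound downstream of the lymphotoxin-β receptor, stood in 6.29% of tested genes with a promoter. Of the 10 genes it stood in Bst2, at −142 to −133, where it overlapped the GAS letters. A match describes letters only, and no binding was measured.

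Of the 10 genes, Ifitm1, Ifitm2, Ifitm3 and Bst2 were higher in Ltbr-/- LT/ST-HSCs, by 1.48-fold to 2.44-fold, with an adjusted p under 0.05 each. The transcription factor genes Irf7 and Irf9 and the genes Isg15, Ifit1, Ifit3 and Oasl2 did not pass the test, and each had a log2 fold change between −0.22 and −0.04. A gene was called where it had an adjusted p under 0.05 (limma, Benjamini-Hochberg over all 13108 names) and also differed by 1.5-fold or more. At these thresholds 3 of the 10 genes were called higher, against 2.72% of all tested genes, and none was called lower, against 0.0610%. At an adjusted p under 0.05 alone, 4 were higher, against 10.6%, and none was lower, against 4.18%; at an unadjusted p under 0.05, 1 of the 10, Irf7, was lower, against 11.4%. The median log2 fold change of the 10 genes was −0.05, and that of all tested genes was −0.01.

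**Figure D1:**
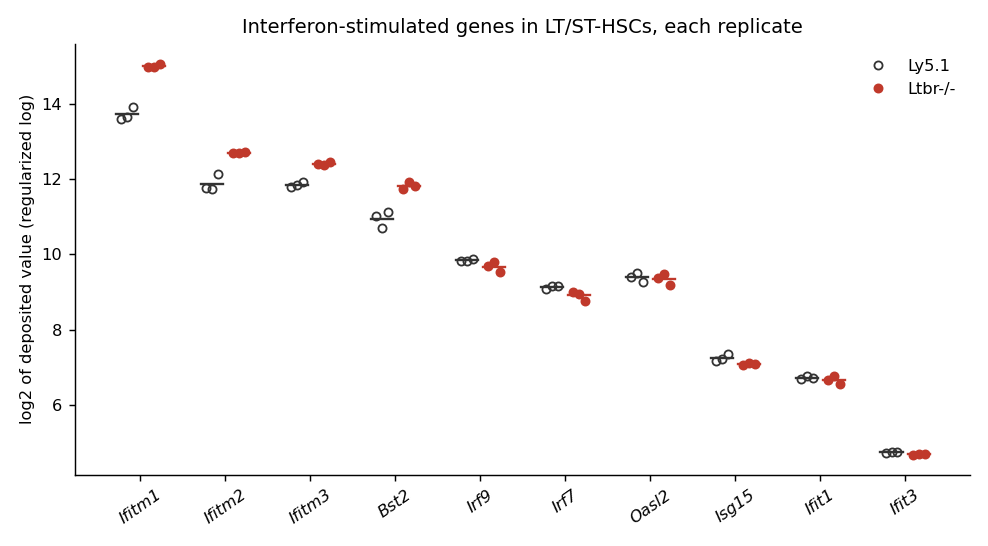
Log2 of the deposited value (regularized log scale) of each of the 10 genes in the 3 Ly5.1 replicates (open circles) and the 3 Ltbr-/- replicates (filled circles), with lines at the group means. The groups do not overlap for Ifitm1, Ifitm2, Ifitm3 and Bst2, which were higher in Ltbr-/- cells, and they overlap for Ifit1 and Oasl2.

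Ifitm1 encodes an interferon-induced transmembrane protein of the cell surface and was the most abundant of the 10 genes. It was at 32059, 32060 and 34313 in the Ltbr-/- replicates and at 12481, 12791 and 15294 in the Ly5.1 replicates. All Ltbr-/- values were above all Ly5.1 values, and Ly5.1 replicate 3 was the highest of its group. The means were 32810 ± 1301 (SD, n = 3) and 13522 ± 1542 (SD, n = 3), a log2 fold change of 1.28 (SE 0.06, 95% interval 1.16 to 1.41, adjusted p = 4.82e-18 in limma). By the size of the increase Ifitm1 ranked 6 among the 13108 tested genes. Quantile normalization moved its log2 fold change to 0.85, still called.

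Ifitm2 and Ifitm3 encode relatives that reside mainly in endosomal membranes and block the entry of viruses there. Ifitm2 was at 6569, 6566 and 6735 in the Ltbr-/- replicates and at 3488, 3432 and 4469 in the Ly5.1 replicates, with no overlap. Its log2 fold change was 0.81 (SE 0.08, 95% interval 0.65 to 0.98, adjusted p = 4.12e-10), a 1.76-fold increase. Of the 76-base windows of its transcript, 41.7% also occur in transcripts of Gm11951, Gm2840, Gm45308, Gm45717 and Gm8865, so that reads could be split among these, and how the authors assigned them is not given in the sources used here.

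Ifitm3 was at 5378, 5335 and 5564 in the Ltbr-/- replicates and at 3509, 3652 and 3856 in the Ly5.1 replicates. The groups did not overlap, and the spread within each was narrow. Its log2 fold change was 0.56 (SE 0.07, 95% interval 0.42 to 0.71, adjusted p = 1.39e-07), a 1.48-fold difference that passed the test and lay just under the fold threshold. Without Ly5.1 replicate 3 it was 0.60 and Ifitm3 was called as well, which made 4 of the 10.

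Bst2 encodes tetherin, a surface protein that holds budding virions to the cell. It was at 3401, 3846 and 3584 in the Ltbr-/- replicates and at 2064, 1660 and 2232 in the Ly5.1 replicates, without overlap. Its log2 fold change was 0.87 (SE 0.09, 95% interval 0.69 to 1.05, adjusted p = 7.53e-10), a 1.83-fold increase. In a fit without moderation of the variances across genes, which estimates the spread of each gene from its own 6 values, the adjusted p was 0.0602 for Bst2 and 0.0562 for Ifitm2, and 1 of the 10 genes, Ifitm1, was called.

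Irf7, the transcription factor that amplifies the type I response, was at 517, 499 and 436 in the Ltbr-/- replicates and at 540, 571 and 576 in the Ly5.1 replicates. All Ltbr-/- values were the lower ones, with Ltbr-/- replicate 3 lowest. The log2 fold change was −0.22 (SE 0.09, 95% interval −0.41 to −0.03), with an adjusted p of 0.117.

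Irf9, the DNA-binding subunit of ISGF3, was at 828, 890 and 737 in the Ltbr-/- replicates and at 915, 908 and 945 in the Ly5.1 replicates. Here too the groups did not overlap and Ltbr-/- replicate 3 was lowest. The log2 fold change of −0.18 (SE 0.09, 95% interval −0.36 to 0.01) had an adjusted p of 0.204.

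Isg15, whose product is attached to other proteins in interferon-treated cells, was at 133, 139 and 136 in the Ltbr-/- replicates and at 144, 150 and 165 in the Ly5.1 replicates. The lowest Ly5.1 value was above the highest Ltbr-/- value, and the log2 fold change was −0.17 (SE 0.09, adjusted p = 0.204). Isg15, Irf7 and Irf9 thus lay lower in Ltbr-/- cells in every replicate without passing the test.

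Ifit1, which binds foreign RNA lacking a host-type cap, was at 101, 110 and 95.0 in the Ltbr-/- replicates and at 103, 109 and 105 in the Ly5.1 replicates, and the groups overlapped. The log2 fold change was −0.06 (95% interval −0.22 to 0.10, adjusted p = 0.685). Ifit3, its relative, was at 25.5, 26.1 and 26.1 in the Ltbr-/- replicates and at 26.7, 27.1 and 26.9 in the Ly5.1 replicates. These groups did not overlap, by a small margin, and the log2 fold change was −0.05 (95% interval −0.14 to 0.04, adjusted p = 0.473). For Ifit3, 40.7% of the 76-base windows also occur in Ifit3b, which is not among the names tested, so that its value is uncertain.

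Oasl2, of the 2′-5′ oligoadenylate synthetase-like family, was at 668, 713 and 585 in the Ltbr-/- replicates and at 681, 724 and 614 in the Ly5.1 replicates. The ranges overlapped almost wholly. The log2 fold change was −0.04 (95% interval −0.23 to 0.15, adjusted p = 0.840), and its sign turned when Ltbr-/- replicate 3 or Ly5.1 replicate 2 was left out.

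Counted over replicates, 4 of the 10 genes had groups that did not overlap with Ltbr-/- higher (17.0% of all tested genes) and 4 had groups that did not overlap with Ltbr-/- lower (13.5%). When the mean log2 values were compared by an exact permutation test (two-sided), these 8 genes reached p = 0.1, the smallest that 3 against 3 samples allow, while p was 0.5 for Ifit1 and 0.6 for Oasl2. This test can therefore not pass 0.05 for any gene.

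**Figure D2:**
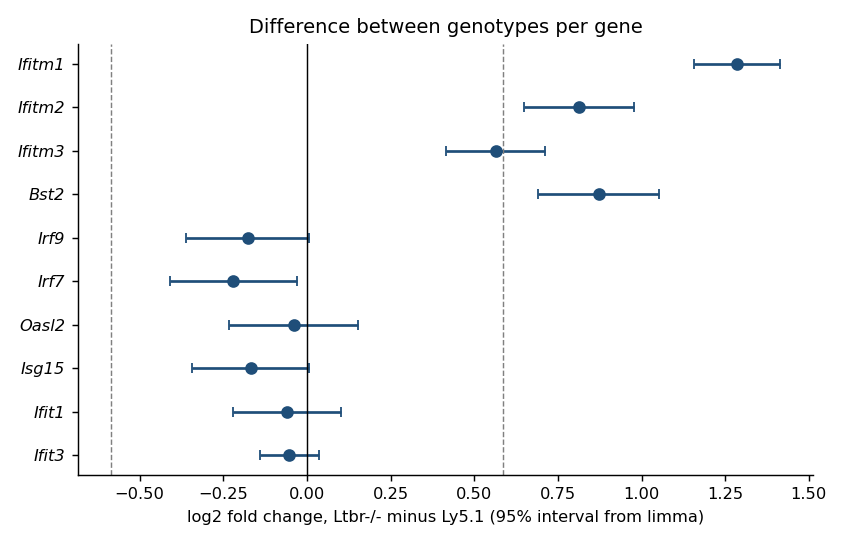
Log2 fold change (Ltbr-/- minus Ly5.1) of the 10 genes with 95% intervals from limma; dashed lines mark a 1.5-fold change in either direction. The intervals of Ifitm1, Ifitm2 and Bst2 lie above the upper line, that of Ifitm3 (0.42 to 0.71) spans it, and the other 6 genes lie between the lines.

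Divided by transcript length, the values of the 10 genes can be ordered. In Ly5.1 cells the mean value per kilobase was 15331 for Ifitm1, 5796 for Ifitm2, 5417 for Ifitm3 and 2507 for Bst2, then 312 for Irf9, 251 for Irf7, 215 for Oasl2 and 202 for Isg15, and 39.9 for Ifit1 and 15.4 for Ifit3. The Ifitm2 and Ifitm3 ranges overlapped, as did those of Oasl2 and Isg15, and all other neighbours were separate in the 3 replicates. In Ltbr-/- cells the order was the same, from 37200 per kilobase for Ifitm1 to 14.8 for Ifit3; Ifitm2 (10112) and Ifitm3 (8003) no longer overlapped, and Irf7 (216) and Oasl2 (210) did. In both genotypes Ifitm1, Ifitm2, Ifitm3 and Bst2 were the 4 most abundant of the 10 per kilobase.

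Ratios between genes within a sample do not depend on a scaling factor per sample. The ratio of Ifitm1 to Ifitm3 was 5.96, 6.01 and 6.17 in the Ltbr-/- replicates and 3.56, 3.50 and 3.97 in the Ly5.1 replicates, so that the neighbours in the Ifitm cluster changed unequally. The ratio of Ifitm1 to Irf7 was 68.3 ± 8.99 (SD) against 24.0 ± 2.23, and that of Bst2 to Irf7 was 7.50 ± 0.835 against 3.54 ± 0.543. The ratio of Ifitm1 to Ifit1 was 324 ± 34.7 in Ltbr-/- and 128 ± 15.2 in Ly5.1 cells. Each of these ratios was higher in all 3 Ltbr-/- replicates than in any Ly5.1 replicate (exact two-sided permutation test, p = 0.1, the smallest possible). For all of these ratios this outcome was fixed by the ranges of the single genes. Ifitm1 and Bst2 were higher and Irf7 lower without overlap. For the ratios to Ifitm3 and Ifit1, the Ifitm1 ranges lay too far apart for the other gene to bring an overlap. The ratios restate the single-gene values, and their lack of overlap adds no further support.

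The level of a gene and the length of its transcript moved with the difference between genotypes over all genes, and the genes that rose were abundant and short. Among the 829 tested genes at or above the mean level of Bst2, 20.0% were called higher and 37.0% were higher at an adjusted p under 0.05, against 1.55% called higher below that level. Of tested genes whose longest coding transcript was under 1000 bases, 15.5% were called higher, against 1.57% of longer ones. Ifitm1, Ifitm2, Ifitm3 and Bst2 have such transcripts, of 882, 655, 678 and 792 bases. Of the 74 tested genes that were both this short and at least this abundant, 74.3% were called higher, and the log2 fold changes of all 74 had a median of 0.81, so that 3 called of these 4 genes is near the share of all genes like them. Ifitm1, at 1.28, ranked 3 of the 74, Bst2 (0.87) was just above the median, Ifitm2 (0.81) at it and Ifitm3 (0.56) below it.

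Many of the 74 encode ribosomal proteins. Without ribosomal protein genes and unnamed Gm symbols, 34 genes were left, of which 44.1% were called higher, and the median of the 34 was 0.58 on the log2 scale. Isg15, at 756 bases, is as short but far less abundant, and it was not higher. These groupings by length and level were chosen after the values were seen, and the part of length and level in the increases was not tested.

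**Figure D3:**
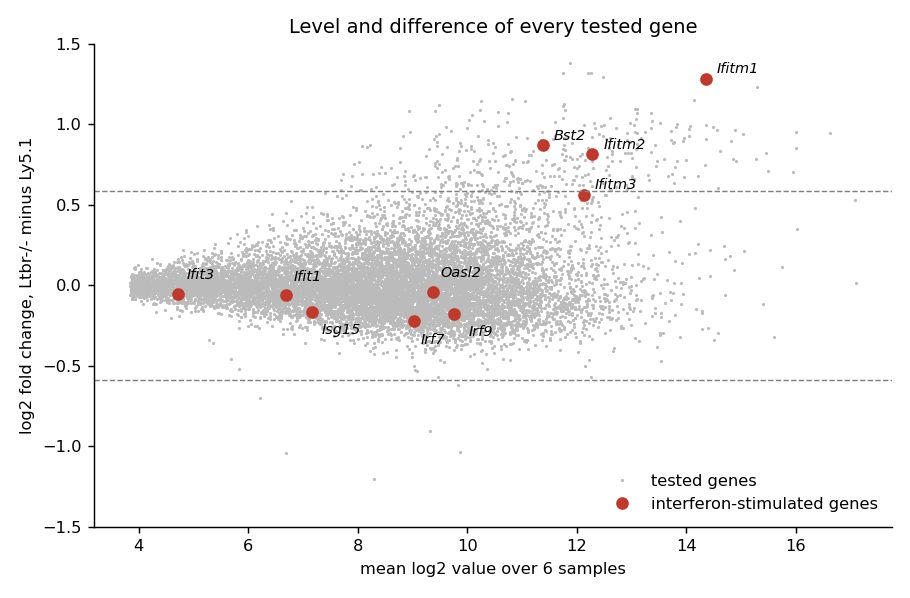
Mean log2 value over the 6 samples (x axis) and log2 fold change, Ltbr-/- minus Ly5.1 (y axis), of all tested genes (grey) and the 10 genes (red); dashed lines mark a 1.5-fold change and 2 genes lie outside the y axis. The spread of all genes widens and its upper edge rises with the level, and the genes that rose are at the high end while Ifit3, Ifit1 and Isg15 are where nearly no gene differs by much.

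The regularized log draws the differences of weakly expressed genes toward 0. Among the 1850 tested genes with a mean value under 50, where Ifit3 lies, 90% had a log2 fold change between −0.10 and 0.11 and none was called. Among the 2913 genes from 50 to 200, with Ifit1 and Isg15, this range was −0.18 to 0.23, and 3 were called, all lower. Among the 5430 genes from 200 to 1000, with Irf7, Irf9 and Oasl2, it was −0.26 to 0.37, with 87 called higher and 5 lower. The standard errors on this scale were 0.04 for Ifit3 and 0.08 for Ifit1, against 0.09 for Irf7 and 0.10 for Oasl2. How large a change in the low genes would have been detected was not tested.

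The other genes of the pathway came from lists written by hand, grouped by role. Of 146 listed genes outside the 10, 107 were tested. Of these, 1 gene, Ly6e, was called higher, against 2.72% of all tested genes, and none was called lower, against 0.0610%. At an adjusted p under 0.05, 3 were higher (Ly6e, Ifitm6 and Socs1) and 17 were lower, with log2 fold changes from −0.39 to −0.25. This is 17 of 107 against the 4.18% of all tested genes, and 16 of 106 without Ly6a, whose protein was used in the sort. By level, the 17 lay from the 54.4th percentile of tested genes (Eif2ak2) upward. The 4.18% also covers weakly expressed genes, and a share among genes of like level was not computed. In all, 83 of the 107 had a log2 fold change below 0, against 53.6% of all tested genes, with a median of −0.11, and groups that did not overlap were lower in 33 of the 107 (13.5% of all tested genes) and higher in 9 (17.0%). The count of 17 was 9 without Ltbr-/- replicate 2 or 3, 10 without Ly5.1 replicate 2 and 11 when Ly5.1 replicate 1 was dropped, at most 16 with any 1 replicate left out, and 5 in the fits without moderation and without a filter on low values.

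The genes of the interferons themselves were not measurable here: of 17 found, 14 did not vary over the samples and none was tested. Of the receptor chains, none of 5 passed the test. Ifngr2, a chain of the interferon-γ receptor, had the largest difference, at 0.25 on the log2 scale (adjusted p = 0.0756), followed by Il10rb at −0.23 (adjusted p = 0.129). The chains of the type I receptor, Ifnar1 (−0.13) and Ifnar2 (0.01), differed little.

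All 5 tested kinases and STATs of the list lay below 0, with a median of −0.23, and 2 fell at an adjusted p under 0.05. Jak1, the kinase bound to both receptors, was at 4151, 3761 and 4022 in the Ltbr-/- replicates and at 4620, 4976 and 4980 in the Ly5.1 replicates, with no overlap. It fell by 0.29 on the log2 scale (adjusted p = 0.00498). Stat3, whose groups overlapped, fell by 0.25 (adjusted p = 0.0444). Stat2, the partner of Irf9 in ISGF3, had a log2 fold change of −0.23 and did not pass (adjusted p = 0.0923).

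Among the 8 tested interferon regulatory factors, Irf1, which drives many interferon-γ genes, was the 1 that passed. It was at 892, 854 and 904 in the Ltbr-/- replicates and at 1107, 1202 and 1041 in the Ly5.1 replicates, and fell by 0.34 on the log2 scale (adjusted p = 0.00676). Irf7 and Irf9 were next in size. Of 8 inhibitors of the pathway, Socs1, which blocks JAK kinases, rose by a log2 fold change of 0.23 (adjusted p = 0.0179), Irf2bp2 was at 0.21 (adjusted p = 0.108), and Usp18, which removes Isg15 from proteins and blocks the type I receptor, was at −0.01.

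None of 15 nucleic acid sensors and adaptors passed the test. Ticam1, the adaptor of Toll-like receptor 3, had a log2 fold change of 0.22 and Zbp1, a sensor of Z-form nucleic acid, one of −0.22. Among the 5 genes of ISG15 conjugation, Uba7, the activating enzyme, was at 6046, 5798 and 5436 in the Ltbr-/- replicates and at 7628, 7374 and 7638 in the Ly5.1 replicates. It fell by 0.39 on the log2 scale (adjusted p = 4.5e-05), and Isg15 itself, given above, did not pass.

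In the Ifit and Ifitm families, 4 of 10 tested genes rose at an adjusted p under 0.05, all of the Ifitm branch: Ifitm1, Ifitm2, Ifitm3 and Ifitm6. Ifitm6, which lies in the same cluster, was at 345, 375 and 289 in the Ltbr-/- replicates and at 209, 265 and 277 in the Ly5.1 replicates. Its log2 fold change was 0.43 (adjusted p = 0.00363). Ifitm5 (0.03) and Ifitm7 (0.04), at values near 20 and 32, did not pass, nor did Ifit2 (−0.10). All 8 tested genes of the OAS family lay below 0 and none passed; Oas1g was at −0.20 (adjusted p = 0.262) and Oas2 at −0.15 (adjusted p = 0.291).

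Of 35 other type I target genes, 1 was higher and 7 were lower at an adjusted p under 0.05, or 6 of 34 lower without Ly6a. Ly6e, a GPI-anchored surface protein that acts on virus entry, was at 10429, 10338 and 10604 in the Ltbr-/- replicates and at 6671, 6097 and 6928 in the Ly5.1 replicates, with no overlap. Its log2 fold change was 0.67 (adjusted p = 3.98e-10), and with quantile normalization 0.37, under the fold threshold, while Uba7 was called lower in that fit. Parp9, an ADP-ribosylation enzyme and partner of interferon signalling, fell by 0.39 (adjusted p = 0.00195). Ly6a, which encodes the Sca-1 protein used in the sort and is therefore no finding, was at −0.39 (adjusted p = 0.0016), and the counts without it are given above.

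Of 18 tested interferon-γ targets, 6 fell at an adjusted p under 0.05, against 4.18% of all tested genes, and none was called. Here too the share was not matched for level. In all, 17 of the 18 had a log2 fold change below 0, against 53.6% of all tested genes, with a median of −0.16. The 6 were all guanosine triphosphatases of the Irg, Tgtp and Gbp kind that act at membranes of intracellular pathogens. Sequence shared among them, as between the relatives Tgtp1 and Tgtp2, was not examined. The 6, and the 17 above that include them, may therefore not all be separate observations. Igtp was at 766, 720 and 738 in the Ltbr-/- replicates and at 988, 850 and 929 in the Ly5.1 replicates and fell by 0.31 on the log2 scale (adjusted p = 0.0143). Tgtp1 fell by 0.29 (adjusted p = 0.0141). The count of 6 was 2 without Ltbr-/- replicate 2 or 3, 3 without Ltbr-/- replicate 1 or Ly5.1 replicate 2, 4 to 5 without another Ly5.1 replicate, and 0 in the fits without moderation and without a filter on low values.

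**Figure D4:**
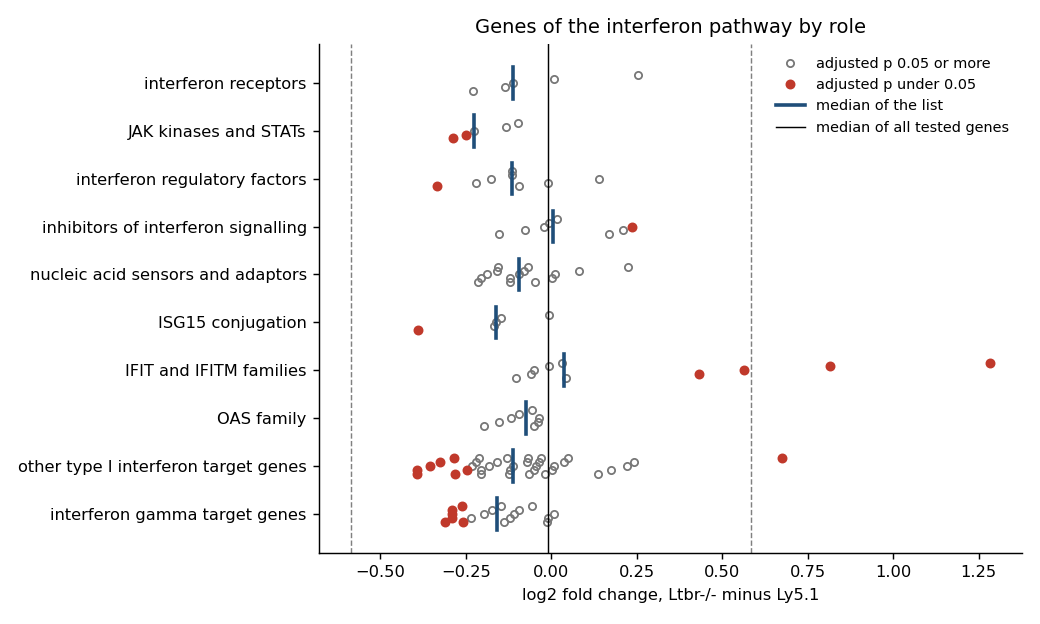
Log2 fold change (Ltbr-/- minus Ly5.1) of every tested gene in each list of the interferon pathway, the 10 genes included in the lists they belong to; red points have an adjusted p under 0.05, blue bars are list medians, the black line is the median of all tested genes (−0.01) and dashed lines mark a 1.5-fold change. Red points lie to the right in the Ifit and Ifitm list and for Ly6e and Socs1. They lie to the left among the kinases and STATs and the interferon-γ targets, and for Irf1 and Uba7. Of the other type I targets, 7 red points lie to the left and 1, Ly6e, to the right.

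The increase within the Ifitm cluster did not extend evenly to its surroundings. From 200 kb before the start of Ifitm1 to 320 kb after it, 18 genes were tested, of which 14 were none of the 10. None of these 14 was called, and 2 had an adjusted p under 0.05, Ifitm6 and, at 193 kb, Rnh1 (log2 fold change 0.48). Irf7, at the far end of this stretch, was lower by value. Around Bst2, 200 kb to each side, 2 of 20 other tested genes were called higher, Ocel1 (0.63) and Pgls (0.84), against 2.72% of all tested genes. At an adjusted p under 0.05, 7 of the 20 were higher, against 10.6%, with Use1 (0.57), Babam1 (0.54), Fam129c (0.39), Ushbp1 (0.27) and Fcho1 (0.25) beside these. Around the Ifit cluster none of the 3 others had an adjusted p under 0.05. The neighbours were named after their values were seen.

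**Figure D5:**
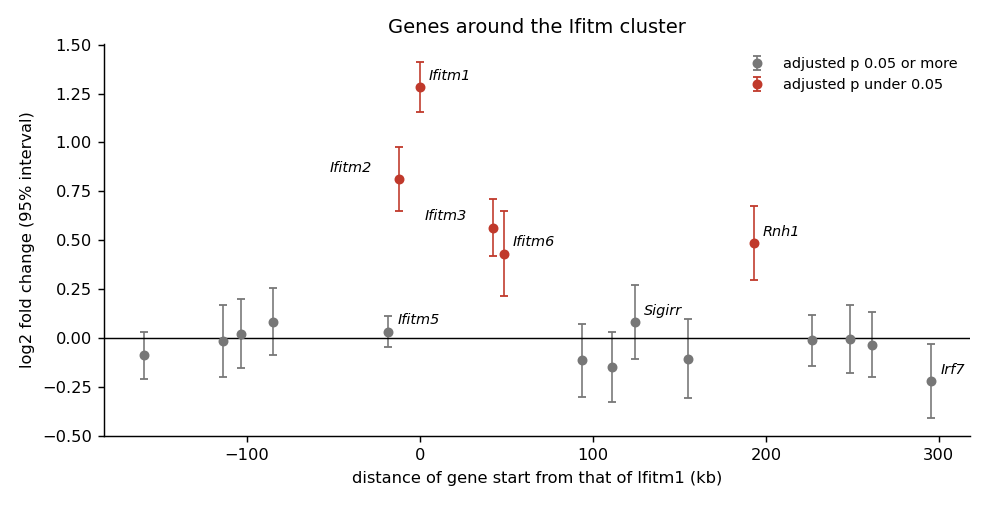
Log2 fold change (Ltbr-/- minus Ly5.1) with its 95% interval of each tested gene around the Ifitm cluster, by the distance of its start from that of Ifitm1 in kilobases. Ifitm1, Ifitm2, Ifitm3 and Ifitm6 lie above 0 close together, Ifitm5, just outside this stretch, lies at 0.03, and most genes farther away have intervals that include 0.

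Bst2 and Irf7 are also used as markers of plasmacytoid dendritic cells, the main producers of type I interferon. Of the other 8 markers of these cells, 6 were tested and none passed. Siglech, the defining one, was at 62.6 to 79.0 in the Ltbr-/- replicates and at 66.6 to 72.8 in the Ly5.1 replicates. The summed values were 991 to 1077 in the Ltbr-/- replicates and 1089 to 1114 in the Ly5.1 replicates. Among 9 monocyte and macrophage markers, Emr1, which encodes F4/80, was called higher (log2 fold change 0.83), and 3 were higher and 1 lower at an adjusted p under 0.05, with sums of 9525 to 10209 against 9503 to 10091.

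Of 6 B cell markers, 3 were tested and Cd79a was called higher (0.62), with sums of 621 to 652 against 457 to 516, while the defining markers Ms4a1, Pax5 and Ebf1 were too low to be tested. None of 4 tested T and NK cell markers passed, with sums of 1061 to 1177 against 1123 to 1245. All 8 neutrophil markers were lower at an adjusted p under 0.05 and none was called, with sums of 40019 to 40437 against 53156 to 57137; Camp fell by 0.57 on the log2 scale. Of 14 genes listed as stem cell markers, Ly6a, Cd34 and Flt3 were lower at an adjusted p under 0.05 and none was called. These do not stand for loss of stem cell identity. Ly6a was used in the sort, and the paper defines LT-HSCs as negative for CD34 and CD135, which Flt3 encodes. Cd48, also listed, was selected against. Procr (−0.05) and Hlf (−0.17) did not pass. The sums over all 14 were 14974 to 15442 against 17100 to 17626. The sums did not overlap between the genotypes for plasmacytoid dendritic cell markers, neutrophil markers and the stem cell list (lower in Ltbr-/- cells). They did not overlap for B cell markers either (higher). The part of these cell types in the values of the interferon-stimulated genes was not tested.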

How the data were processed

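RNA of LT/ST-HSCs was sequenced in 3 Ltbr-/- and 3 Ly5.1 samples, grouped by their labels. The authors assembled and quantified the reads with SeqMan NGen and ArrayStar and computed regularized log values with Bioconductor; the submitters' processing notes name DESeq2 and the build GRCm38 (mm10). The deposited unit is a signal per gene, taken from its values as 2 to the power of the regularized log; it holds no counts, so that the depth is unknown. Whether reads were counted by strand is not given in the sources used here.

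Each file has 26595 entries; a repeated name was represented by its most abundant entry, 9034 names were constant, and the upper 50% by mean (at least 14.4) was tested. The log2 of the deposited signal was fitted per gene in limma 3.58.1 under R 4.3.3 (lmFit, then eBayes with its trend option) with genotype as the only term, and p-values were adjusted by Benjamini-Hochberg over all tested names. The script was tested on simulated data. Single genes were also compared by an exact permutation test (SciPy 1.17.1). Replicates were pools of chimeras. The limma p-values do not rest on the spread between these pools alone, because eBayes moderates the variance of each gene with that of other genes. For Ifitm1 the adjusted p was 4.82e-18 in limma with this moderation and 0.0253 in the fit without it. The filter and the trend option mattered as well. With moderation kept, it was 8.61e-06 in limma without the trend and 0.0111 without the filter on low values. In that unfiltered fit it was 0.0372 for Ifitm2, 0.0115 for Ifitm3 and 0.0414 for Bst2.

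The members and lists were chosen with earlier results of these data known. A few listed genes are not reported here and were left out of the list counts. Named were the 10 members with every value and, per list, each called gene or otherwise the 2 with the largest change; the remaining pathway genes and neighbours named were chosen after their values were seen. Positions and lengths came from GENCODE M21, promoters from RefSeq GRCm38.p6, both of the build of the files. Alternatives were other filters, scalings, pseudocounts and variance models, the replicate number as a block, the mean of repeated entries and leaving out each replicate.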

Additional observations from a re-analysis of the deposited data

How the results depend on the processing

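Ifitm1, Ifitm2, Ifitm3, Bst2 and Ly6e had a positive log2 fold change under every alternative run, from 0.85 to 1.38 for Ifitm1, 0.67 to 0.94 for Ifitm2, 0.44 to 0.60 for Ifitm3, 0.75 to 0.96 for Bst2 and 0.37 to 0.71 for Ly6e. Without moderation of the variances, 1 of the 10 genes was called and 2 had an adjusted p under 0.05; the cause was not tested. Leaving out 1 replicate at a time, 3 to 4 of the 10 genes were called, 4 to 4 had an adjusted p under 0.05 and 1 to 1 other pathway gene was called. Leaving out 1 replicate, the log2 fold change of Oasl2 ran from −0.10 to 0.039; it turned to 0.039 without Ltbr-/- replicate 3 and 0.01 without Ly5.1 replicate 2, neither past the threshold; the cause was not tested. With the replicate number as a block, which the labels do not tie to shared chimeras, 3 of the 10 genes were called and 4 had an adjusted p under 0.05, with no call changed and, among the other pathway genes, 15 lower in place of 17. The deviations of same-numbered samples correlated at 0.03, −0.01 and 0.09, and those of differently numbered samples at −0.07 to 0.05. With 3 replicates per group these values cannot decide whether the numbers pair the samples. The main fit therefore used no pairing because the labels give none. Centring on the most abundant genes was chosen after seeing the data and left 3 called. With only the upper 25% of names tested, 7 of the 10 genes were left.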
